A study of Mus musculus with 8 samples.

Results

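Interferon-stimulated genes are the genes that a cell switches on when interferon, a secreted alarm protein of virus infection, binds its receptor. The 39 genes described here were taken by name from 2 deposited RNA sequencing tables that list 52338 and 52139 genes. All 39 names were found in the larger table and 38 in the smaller one, where Ddx58 carries its newer name Rigi under the same Ensembl identifier, so that every member was measured in every library. The cells are labelled C2C12, an immortalised mouse myoblast line of wild type genotype, and the study asked what ginseng products do to their gene expression. In the larger table, called the Re table here, 3 libraries came from cells given ginsenoside Re, a saponin of ginseng, and 3 from cells given DMSO, a solvent, as the control. In the smaller table, called the GBC table, 1 library came from cells given ginseng berries concentrate (GBC) and 1 from cells given DMSO. Doses and times were not given in the labels, and nothing in them says that libraries of a group came from separate cultures, so the p-values measure only the spread between these libraries, which may be technical.

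Values are TPM, a transcript share that divides by gene length, so that levels of different genes in a library can be compared. TPM keep no read depth. Added over all genes listed, TPM came to 704657 to 743269 in the Re libraries, against 642180 to 716589 in their DMSO libraries, and to 479938 in the GBC library, against 403442 in its DMSO library. The myoblast identity of the Re table could be seen in Myf5, at 32.4 to 34.2 TPM in Re and 30.2 to 32.7 TPM in DMSO, and in Myod1, at 9.95 to 13.6 TPM in Re and 11.9 to 12.6 TPM in DMSO. The GBC table goes against its label in part of 8 myoblast markers: Myod1, Myf5 and the M-cadherin gene Cdh15 were listed at 0 in both libraries. Des was at 1.59 TPM in GBC and 1.92 TPM in DMSO, against 115 to 127 TPM in the Re table. Chrna1 was at 0.06 and 0.05 TPM, against 24.7 to 27.4 TPM. Mef2c went the other way, at 5.86 TPM in GBC and 3.09 TPM in DMSO, against 0.03 to 1.04 TPM in the Re table. Pax7 and Myog were at 0 to 0.30 TPM in the Re table and at 0 in the GBC table. Of 6 mesenchymal markers Thy1 was at 22.1 TPM in GBC and 23.8 TPM in DMSO, against 0 to 0.08 TPM in the Re table, while Col3a1 was lower in the GBC table, at 39.3 TPM in GBC and 19.8 TPM in DMSO, than in the Re table, at 178 to 271 TPM, and Dcn and Lum were at 0.02 to 0.19 TPM. The 2 tables were therefore described one beside the other and analysed apart. Leukocytes express many interferon-stimulated genes, and of 7 leukocyte markers Ptprc, Tyrobp and Adgre1 were listed at 0 in all 6 libraries of the Re table; in the GBC table Ptprc was at 0.11 TPM in GBC and 0.06 TPM in DMSO, Adgre1 at 0.01 TPM in each and Tyrobp at 0. Cd68, also expressed outside leukocytes, made up most of the list's sum in the Re table, at 2.06 to 2.69 TPM in Re and 1.21 to 2.18 TPM in DMSO, and Lyz2, Csf1r and Itgam were at 0 to 0.62 TPM there. The 7 markers summed to 2.96 to 3.23 TPM in Re, 1.86 to 2.90 TPM in DMSO, 1.69 TPM in GBC and 1.88 TPM in its DMSO library.

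Type I interferon binds the receptor made of Ifnar1 and Ifnar2, whose kinases Jak1 and Tyk2 phosphorylate transcription factors that include Stat2. These join Irf9 and enter the nucleus, where the complex binds the interferon-stimulated response element (ISRE), a repeat of GAAA spaced by a pair of bases. Interferon gamma acts through a separate receptor and another DNA element, the gamma-activated site. The products block virus entry, translation and genome copying, sense foreign RNA, tag proteins with ISG15 and load peptides for T cells, and many of them are barely expressed without interferon.

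The response element itself is shown first. The genes were chosen by name and not by sequence, but as genes that interferon switches on, partly through this element. Its frequency among them is therefore no independent finding. RefSeq promoter windows on build GRCm38.p6, which run from 250 bases before to 50 bases after a gene's start, were matched by symbol for 30 of the 39 members; Dhx58, Zbp1, Usp18, Mx1, Mx2, Oas2, Parp9, Parp14 and Ifi27 had none. The ISRE core was searched as GAAANNGAAA on either strand, which reads TTTCNNTTTC from the other side, and matches may overlap. It was present in a window of 16 of the 30 members (53.3%), against 1079 of 27025 genes with a window (3.99%) and 3.44% of all windows of that length. The gamma-activated site, searched as TTCNNNGAA, was present in 8 of the 30 (26.7%), against 9.55% of genes. A match is a description of the sequence and not a bound site. The stretches below show the core in capitals with its flanks in lower case, in the direction of the gene. They were picked from the members with a core. The first 5 averaged under 2 TPM in the DMSO libraries of the Re table, and the 3 after them had the highest levels.
Isg15: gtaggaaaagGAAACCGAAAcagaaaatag
Ifit1: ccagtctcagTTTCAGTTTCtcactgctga
Ifit3: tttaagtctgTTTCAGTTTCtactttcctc
Rsad2: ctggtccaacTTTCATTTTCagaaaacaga
Cxcl10: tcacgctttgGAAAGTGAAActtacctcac
B2m: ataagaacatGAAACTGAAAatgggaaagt
Ifitm2: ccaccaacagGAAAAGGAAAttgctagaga
Ifitm3: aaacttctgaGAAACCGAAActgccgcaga

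These stretches lie at chr4:156200871-156200900 (minus strand) for Isg15, chr19:34640794-34640823 (plus) for Ifit1, chr19:34583397-34583426 (plus) for Ifit3, chr12:26456553-26456582 (minus) for Rsad2 and chr5:92349083-92349112 (minus) for Cxcl10. They lie at chr2:122147538-122147567 (plus) for B2m, chr7:140955988-140956017 (minus) for Ifitm2 and chr7:141010706-141010735 (minus) for Ifitm3. The core began 72 bases before the annotated start in Isg15, 85 in Ifit1, 122 in Ifit3, 120 in Rsad2, 213 in Cxcl10, 139 in B2m and 46 in Ifitm2. In Ifitm3 it began 19 bases after the start. All positions are on build GRCm38.p6.

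At rest the members split widely by level. In the Re table, 3 members averaged at least 100 TPM over the DMSO libraries, 5 from 10 to 100 TPM, 12 from 1 to 10 TPM and 19 under 1 TPM, with a median of 1.25 TPM over the 39. In the GBC table, 2 were at 100 TPM or more, 2 from 10 to 100 TPM, 11 from 1 to 10 TPM and 24 under 1 TPM in its DMSO library, with a median of 0.50 TPM. In both controls 18 members were under 1 TPM and 4 were at 10 TPM or more, namely B2m, Ifitm2, Ifitm3 and Ifi27. The levels in the 2 tables are a description, since their listed sums differ and their cells differ in the markers above.

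The abundant end held antigen presentation and membrane genes. B2m, the constant chain of MHC class I, averaged 324 ± 27.1 TPM (SD, n = 3) in the DMSO libraries of the Re table and stood above 98.7% of the genes listed above 0 there. Ifitm3, a membrane protein that blocks virus fusion in endosomes, averaged 274.6 ± 37.3 TPM (SD, n = 3) and its relative Ifitm2 237 ± 25.3 TPM (SD, n = 3). Of the 12 antiviral effectors Ifit2, Bst2 and Isg20 averaged 5.98, 4.29 and 3.13 TPM in DMSO, above the median of the members, and the other 9 averaged under 1 TPM. Among the lowest, Oas1a, Oas2 and Oas3, whose enzymes make the messenger that activates RNase L, were listed at 0 in all 3 DMSO libraries of the Re table, and the dynamin-like GTPase gene Mx2 was at 0 to 0.09 TPM. Rsad2, which encodes viperin, was at 0.06 to 0.11 TPM in those libraries and listed at 0 in the DMSO library of the GBC table. The chemokine gene Cxcl10 ran from 0 to 1.81 TPM in the same 3 DMSO libraries.

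The members with an ISRE core were not the more abundant ones by their median. The 16 members with a core had a median of 1.10 TPM in the DMSO libraries of the Re table and 8 of them were under 1 TPM, while the 14 without one had a median of 4.50 TPM and 4 were under 1 TPM. In the DMSO library of the other table, 12 of the 16 and 5 of the 14 were under 1 TPM, with medians of 0.17 TPM and 1.94 TPM. B2m, Ifitm2 and Ifitm3 held a core and were the highest members in both tables, so that the genes with a core stood at both ends of the range.

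**Figure D1:**
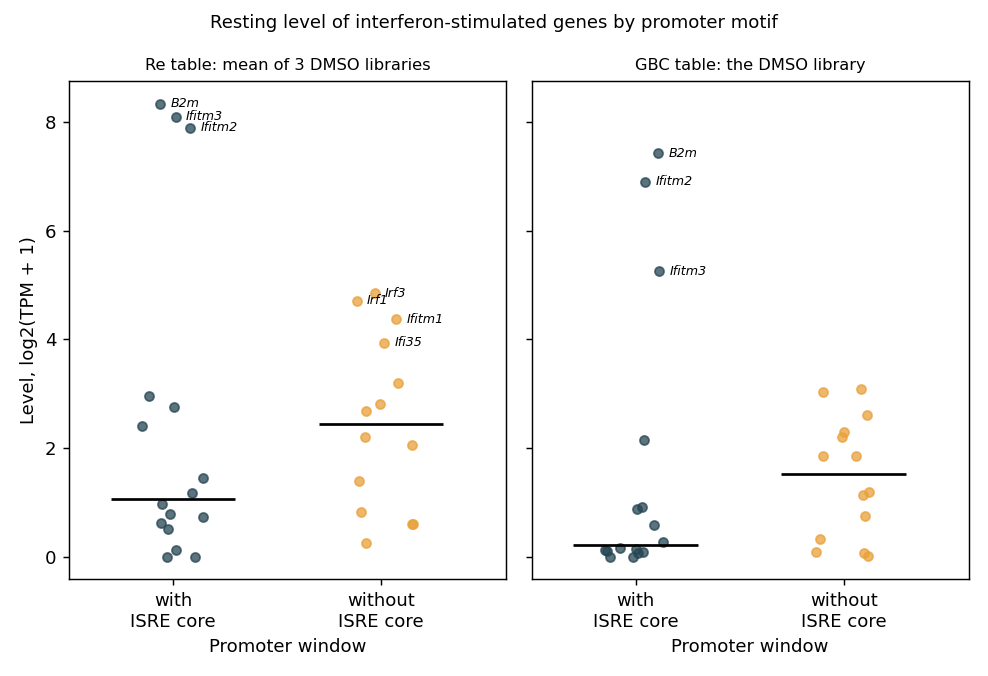
Resting level of the 30 interferon-stimulated genes with a promoter window, as log2(TPM + 1), by whether the window holds the ISRE core; points are genes and bars are medians. In both panels B2m, Ifitm2 and Ifitm3 stand far above the other genes with a core, most of which lie near 0.

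Some members differed in rank between the controls. Ifitm1, a plasma membrane relative of Ifitm3, was at 21.2, 15.9 and 21.9 TPM in the 3 DMSO libraries of the Re table and at 0.06 TPM in the DMSO library of the GBC table. Bst2, the tetherin that holds budding virus at the cell surface, was at 4.85, 3.16 and 4.87 TPM in those 3 libraries and at 0.07 TPM in the other control. The order was turned round for the peptide transporter gene Tap1, at 0.46, 0 and 1.09 TPM in the Re table and 3.58 TPM in the GBC table, and its partner Tap2 showed the same order, at 0.07 to 0.58 TPM and 2.52 TPM. In share of listed TPM the members together made up 0.142% to 0.152% of each DMSO library of the Re table and 0.0961% of the DMSO library of the GBC table. In bulk RNA a smaller share of expressing cells and less RNA per cell cannot be told apart.

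**Figure D2:**
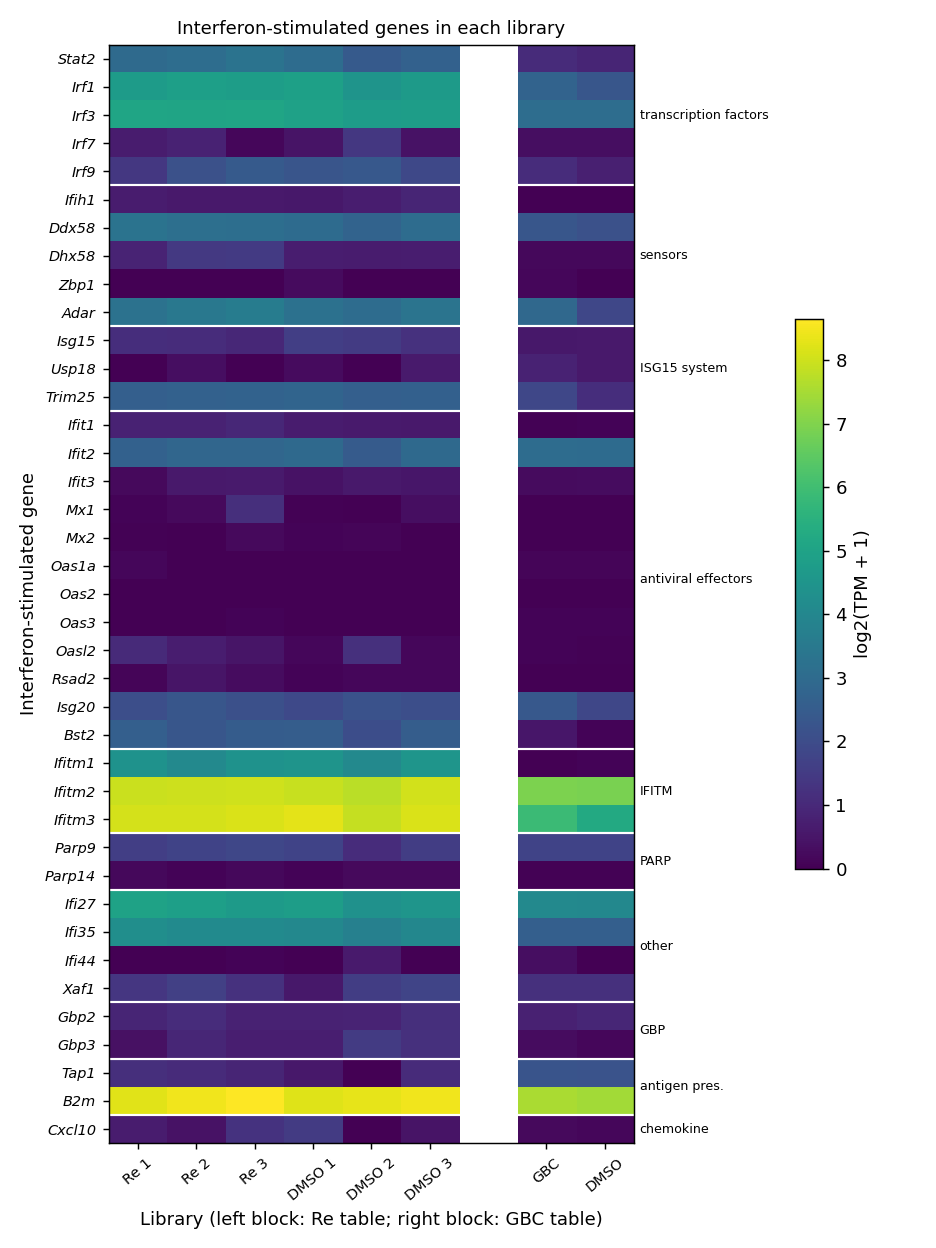
Level of all 39 interferon-stimulated genes as log2(TPM + 1) in each of the 8 libraries, with the Re table as the left block and the GBC table as the right block and white lines between roles. The rows of B2m, Ifitm2 and Ifitm3 are bright throughout, 9 of the 12 antiviral effectors are dark, and Ifitm1 is bright only in the left block.

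The main comparison asked whether ginsenoside Re moved these genes, and no member passed the test. Of the 39 members 20 averaged 1 TPM or more over the 6 libraries and were tested with limma on log2(TPM + 1) among 11967 genes. Differences are Re minus DMSO on that scale. None had an adjusted p under 0.05, the smallest being 0.687, where 0% of all tested genes were called. At an unadjusted p under 0.05 there were 2 members, Irf3 and Dhx58, beside 6.23% of all tested genes. Of the 20, 16 were higher and 4 lower in Re, with a median difference of 0.109, beside a median of 0.105 over all tested genes, of which 77.5% were higher. After median-of-ratios scaling, which moves the median of all genes to 0.00021, 9 of 19 members were higher and 10 lower and their median was -0.0004. The lowest Re value exceeded the highest DMSO value in 4 members, Irf3, Ddx58, Dhx58 and Ifi35, beside 13.7% of all tested genes, and the highest Re value was under the lowest DMSO value in 1, Isg15, beside 1.27%. After scaling, with the same genes kept, Irf3 and Dhx58 were still above and Isg15 below, and the groups overlapped for Ddx58 and Ifi35. Trim25 then lay below. These stood beside 5.28% of all tested genes above and 5.0% below. Dhx58 reached a mean of 1 TPM only through its Re values and fell under it after scaling. Its place in these counts, and among the 2 at an unadjusted p under 0.05 in limma, is no support for a shift. The 95% confidence interval of a member reached 0.21 to 0.75 to either side of its difference, without adjustment over the genes tested. Changes of such size in either direction could therefore go uncalled with 3 libraries a group.

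**Figure D3:**
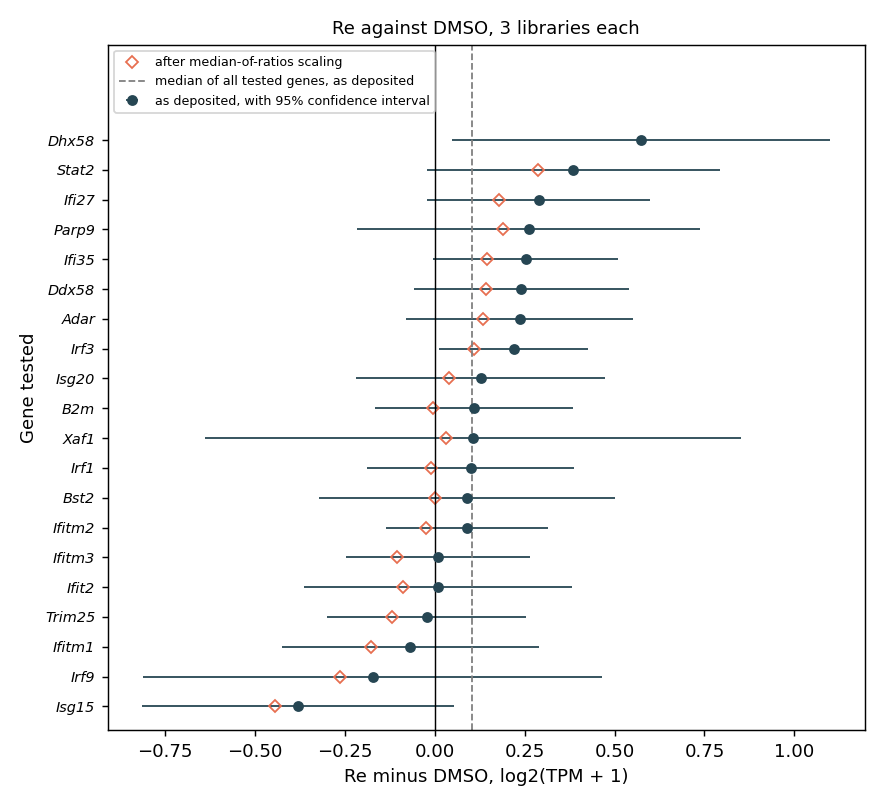
Difference of Re minus DMSO in log2(TPM + 1) for the 20 interferon-stimulated genes tested, with the 95% confidence interval from limma as lines and the values after median-of-ratios scaling as open diamonds. The differences run from -0.38 for Isg15 to 0.57 for Dhx58, spread around the dashed median of all tested genes at 0.105.

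Among the transcription factors Irf3 (ENSMUSG00000003184), the factor that turns on interferon genes after virus sensing, was at 33.0, 31.7 and 33.0 TPM in Re, against 30.0, 26.4 and 27.2 TPM in DMSO. Every Re value exceeded every DMSO value, with a difference of 0.22 (95% confidence interval 0.01 to 0.43, adjusted p 0.687 in limma), or 0.11 after scaling. Stat2 (ENSMUSG00000040033), a part of the response element complex, was at 6.90, 7.48 and 8.82 TPM in Re, against 7.37, 4.51 and 5.41 TPM in DMSO, a difference of 0.38 (interval -0.02 to 0.79). The groups overlapped through DMSO replicate 1. Irf9, the DNA-binding part of that complex, was at 1.66, 3.45 and 4.46 TPM in Re, against 3.90, 4.16 and 2.66 TPM in DMSO, a difference of -0.17 that was 0.12 without Re replicate 1. Irf1, an early factor of the interferon gamma response, was at 25.7, 28.2 and 27.0 TPM in Re, against 29.3, 21.3 and 25.2 TPM in DMSO, a difference of 0.10 that was -0.01 after scaling. Irf7, which amplifies the response, was under the filter, at 0.12 to 0.77 TPM in Re and 0.33 to 1.62 TPM in DMSO.

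Of the sensors, Dhx58 (ENSMUSG00000017830), the LGP2 regulator of RNA sensing, was at 0.81, 1.72 and 1.74 TPM in Re, against 0.62, 0.58 and 0.60 TPM in DMSO. The Re values were above all DMSO values, though Re replicate 1 lay near them, and the difference was 0.57 (95% confidence interval 0.05 to 1.10, adjusted p 0.687 in limma). The gene passed the filter only through its Re values, so this difference is no support for a shift of the group. Ddx58 (ENSMUSG00000040296), which encodes the RNA sensor RIG-I, was at 8.77, 7.95 and 7.61 TPM in Re, against 7.04, 5.75 and 7.40 TPM in DMSO, without overlap, a difference of 0.24 (interval -0.06 to 0.54.) Adar, which edits adenosines in double-stranded RNA and so keeps self RNA from the sensors, was at 8.51, 9.91 and 11.3 TPM in Re, against 8.37, 7.26 and 9.06 TPM in DMSO, a difference of 0.24 with overlapping groups. The MDA5 sensor gene Ifih1 was at 0.49 to 0.58 TPM in Re and 0.46 to 0.88 TPM in DMSO. Zbp1, a sensor of left-handed nucleic acid, was listed at 0 in all Re libraries and at 0 to 0.18 TPM in DMSO.

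The gene of the ubiquitin-like modifier itself, Isg15 (ENSMUSG00000035692), was at 1.2, 1.16 and 0.93 TPM in Re, against 2.03, 1.85 and 1.34 TPM in DMSO. It was the member whose Re values all lay below its DMSO values, with a difference of -0.38 (95% confidence interval -0.81 to 0.05, adjusted p 0.687 in limma) and -0.44 after scaling. Usp18, the protease that removes ISG15 and damps receptor signalling, was at 0 to 0.25 TPM in Re and 0 to 0.55 TPM in DMSO. Trim25, a ubiquitin ligase that acts on RIG-I, was at 5.09, 5.36 and 5.51 TPM in Re, against 5.88, 5.12 and 5.27 TPM in DMSO, a difference of -0.02 (interval -0.30 to 0.25). Uba7, the activating enzyme of ISG15 and not a member, was at 2.65, 1.99 and 3.13 TPM in Re, against 1.04, 1.26 and 1.22 TPM in DMSO. Its groups did not overlap, with a difference of 0.71 (95% confidence interval 0.29 to 1.14, adjusted p 0.687 in limma).

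Only 3 of the 12 antiviral effectors were tested. Ifit2, which binds viral RNA and restrains translation, was at 5.38, 6.30 and 6.18 TPM in Re, against 6.68, 4.55 and 6.70 TPM in DMSO, a difference of 0.01 (interval -0.36 to 0.38), and -0.09 after scaling. Isg20, an exonuclease of single-stranded RNA, was at 3.20, 3.99 and 3.36 TPM in Re, against 2.74, 3.48 and 3.18 TPM in DMSO, a difference of 0.13. Bst2 was at 5.15, 3.96 and 4.65 TPM in Re, against 4.85, 3.16 and 4.87 TPM in DMSO, a difference of 0.09. In all 3 the groups overlapped. The other 9 averaged under 1 TPM and were not tested. Among them Ifit1, the cap sensor of the IFIT family, was at 0.77, 0.78 and 0.95 TPM in Re, against 0.56, 0.55 and 0.50 TPM in DMSO, without overlap. Mx1, an antiviral GTPase, was at 0.07, 0.16 and 1.22 TPM in Re, against 0.04, 0 and 0.24 TPM in DMSO, so that Re replicate 3 stood apart from the other 5 libraries. Oasl2 was at 1.04, 0.63 and 0.42 TPM in Re, against 0.12, 1.31 and 0.10 TPM in DMSO, where DMSO replicate 2 alone was high. Ifit3 stayed at 0.17 to 0.55 TPM in Re and 0.34 to 0.50 TPM in DMSO. Oas2 was listed at 0 in all 8 libraries.

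The abundant membrane genes and B2m did not pass the test. Ifitm3 was at 268, 272 and 285 TPM in Re, against 308, 234 and 282 TPM in DMSO, a difference of 0.01 (interval -0.25 to 0.27), or -0.10 after scaling. Ifitm2 was at 245, 250 and 260.4 TPM in Re, against 239, 211 and 262 TPM in DMSO, a difference of 0.09, or -0.02 after scaling. Ifitm1 was at 20.1, 15.6 and 20.2 TPM in Re, against 21.2, 15.9 and 21.9 TPM in DMSO, a difference of -0.07. B2m was at 303, 351 and 398 TPM in Re, against 298, 321 and 352 TPM in DMSO, a difference of 0.11 (interval -0.17 to 0.38), and -0.005 after scaling. The groups overlapped for each of these 4 genes. Tap1, which feeds peptides to class I molecules, was not tested and was at 1.23, 1.07 and 0.86 TPM in Re, against 0.46, 0 and 1.09 TPM in DMSO.

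The remaining members with a test did not pass it either. Ifi35, a leucine zipper protein induced by interferon, was at 18.5, 16.6 and 16.6 TPM in Re, against 15.4, 12.7 and 14.9 TPM in DMSO, without overlap, a difference of 0.25 (95% confidence interval -0.004 to 0.51, adjusted p 0.687 in limma). Ifi27 was at 30.6, 28.4 and 25.1 TPM in Re, against 27.0, 19.9 and 21.8 TPM in DMSO, a difference of 0.29 with overlapping groups. Parp9, which works with the ubiquitin ligase Dtx3l, was at 2.04, 2.34 and 2.59 TPM in Re, against 2.30, 1.14 and 2.0 TPM in DMSO, a difference of 0.26. Xaf1, which binds the apoptosis inhibitor XIAP, was at 1.59, 2.10 and 1.35 TPM in Re, against 0.47, 2.0 and 2.42 TPM in DMSO, a difference of 0.11 that was -0.27 without DMSO replicate 1. Parp14 and Ifi44 were under 1 TPM in every library, Gbp2 was at 0.79 to 1.13 TPM in Re and 0.77 to 1.24 TPM in DMSO, and the GTPase gene Gbp3 was at 0.30, 0.90 and 0.66 TPM in Re, against 0.64, 1.81 and 1.30 TPM in DMSO. Cxcl10 was at 0.33 to 1.42 TPM in Re and 0 to 1.81 TPM in DMSO.

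The spread between libraries was partly common to the members and to all tested genes. DMSO replicate 2 was the lowest of the 6 libraries in 13 of the 20 tested members and the highest in 0; over all tested genes it was the lowest in 51%, and its listed TPM sum was the smallest of the 6. After median-of-ratios scaling it was lowest in 10 of the 20 and highest in 3. The share over all tested genes was not counted after scaling, so whether this is particular to the members was not tested. Re replicate 3, which had the largest listed sum, was the highest in 6 of the 20 and in 36.7% of all tested genes. Without DMSO replicate 2 the groups did not overlap in 8 members, 5 higher, beside 16.9% of all tested genes, and 3 lower, beside 4.8%, and the median difference of the members was 0.091, beside 0.054 over all genes.

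The rest of the pathway was read from 6 lists with 107 genes, of which 61 were tested in Re and 0 passed. At an unadjusted p under 0.05 in limma there were 6, beside 6.23% of all tested genes. After median-of-ratios scaling there was 1, beside 565 of 11958 genes. With 1 library left out there were 1 to 13. The 13 came without DMSO replicate 1, beside 1657 of 11966 genes. Of the 61, 48 were higher and 13 lower in Re, with a median of 0.149. Over all tested genes 77.5% were higher, with a median of 0.105. After scaling 39 of the 61 were higher and 22 lower, with a median of 0.053. Over all genes 5988 of 11958 were then higher, with a median of 0.0002. None of the 13 interferon genes reached 1 TPM: 8 were listed at 0 in all 8 libraries, and Ifna13 was at 0.16 to 0.42 TPM in Re and 0.27 to 0.50 TPM in DMSO. The tested receptor chains and kinases averaged 3.94 to 47.4 TPM in DMSO, while the receptor gene Ifnlr1 was at 0 to 0.03 TPM in Re and listed at 0 in DMSO, and 7 of the 9 tested genes of that list had every Re value higher than every DMSO value, beside 13.7% of all tested genes. Among them Ifngr2, a chain of the interferon gamma receptor, averaged 15.0 ± 1.40 TPM in Re and 11.9 ± 1.44 TPM in DMSO (SD, n = 3 each), a difference of 0.32, or 0.21 after scaling. The kinase gene Tyk2 averaged 5.17 ± 0.550 TPM in Re and 3.94 ± 0.573 TPM in DMSO (SD, n = 3 each), a difference of 0.32, or 0.23 after scaling. Such separation held for 15 of the 61 genes, beside 13.7% of all tested genes, and for 6 after scaling, beside 5.28%. It was not counted by list after scaling. The median difference of the receptors and kinases was 0.23 as deposited and 0.12 after scaling. These lists were drawn up with results of these data known, and the genes named from them are those with the largest differences, so their values are a description.

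Of the other lists, the sensing relay had 9 of 11 tested genes higher, with differences of 0.28 for the adaptor Myd88, 0.27 for Traf3 and 0.16 for Ticam1. Among 12 tested genes that restrain the response 8 were higher, with Rnaseh2c and Rnaseh2a, subunits of an enzyme that clears RNA from DNA, differing by 0.70 and 0.36 and the phosphatase gene Ptpn6 by 0.32. Of the MHC class I list 7 of 10 were higher, with 0.57 for H2-T23, 0.27 for H2-M3 and 0.23 for H2-K1. Among 19 tested further interferon-stimulated genes 16 were higher, with Trim21, an intracellular antibody receptor, at 0.30 and Nmi at 0.28. These counts stand beside 77.5% of all tested genes higher in Re. Median-of-ratios scaling moved the list medians from 0.124 to 0.036 for the sensing relay and from 0.091 to -0.001 for the restraining genes. It moved them from 0.152 to 0.041 for class I and from 0.146 to 0.037 for the further interferon-stimulated genes. Over all tested genes it moved the median from 0.105 to 0.0002. Each of the named genes of these lists had an adjusted p of 0.687 to 0.725 in limma.

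GBC was compared with DMSO in 1 library each, so no test was possible and each difference, GBC minus DMSO in log2(TPM + 1), has no replicate check. Of the 39 members 15 averaged 1 TPM or more in the pair. Their median difference was 0.062, beside 0.320 over 10989 genes, of which 88.8% were higher in GBC; 13 members were higher, 1 lower and 1 equal. With each library rescaled to the same listed TPM sum the median was -0.135, beside 0.113 over all genes, and 5 of the 15 were higher. At least 1 higher on the log2 scale stood 1 member, Adar, beside 4.35% of all genes, and at least 1 lower stood 0, beside 0.4%. Adar was at 6.61 TPM in GBC, against 2.62 TPM in DMSO, a difference of 1.07, which was 0.87 with equal sums and 0.70 after median-of-ratios scaling and so no longer reached 1.

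The members above the median of all genes were Adar, Trim25, Ifitm3, Isg20 and Irf1. Trim25 was at 2.60 TPM in GBC, against 1.19 TPM in DMSO, a difference of 0.72. Ifitm3 was at 58.3 TPM in GBC, against 37.1 TPM in DMSO, a difference of 0.64. Isg20 was at 4.18 TPM in GBC, against 2.59 TPM in DMSO, and Irf1 at 5.73 TPM in GBC, against 3.92 TPM in DMSO. These 5 were also the members that stayed above 0 with equal sums.

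The other 10 lay below the median of all genes, and several had almost the same TPM in both libraries. Ifi35 was at 5.09 TPM in GBC, against 5.08 TPM in DMSO, Xaf1 at 1.29 TPM in each, and Parp9 at 2.33 TPM in GBC, against 2.30 TPM in DMSO. Ifit2 was at 7.33 TPM in GBC, against 7.14 TPM in DMSO, Ifi27 at 15.9 TPM in GBC, against 15.4 TPM in DMSO, and Ifitm2 at 123 TPM in GBC, against 119 TPM in DMSO. The antigen presentation genes were close as well, with B2m at 186 TPM in GBC, against 171 TPM in DMSO, and Tap1 at 3.78 TPM in GBC, against 3.58 TPM in DMSO. Ddx58 was at 3.95 TPM in GBC, against 3.44 TPM in DMSO. Irf3 was at 7.43 TPM in GBC, against 7.51 TPM in DMSO, the 1 lower member. Of the 24 members under 1 TPM, Bst2 was at 0.45 TPM in GBC, against 0.07 TPM in DMSO, Isg15 at 0.46 TPM in GBC, against 0.50 TPM in DMSO, and Ifih1, Mx1, Mx2, Oas2 and Rsad2 were listed at 0 in both.

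**Figure D4:**
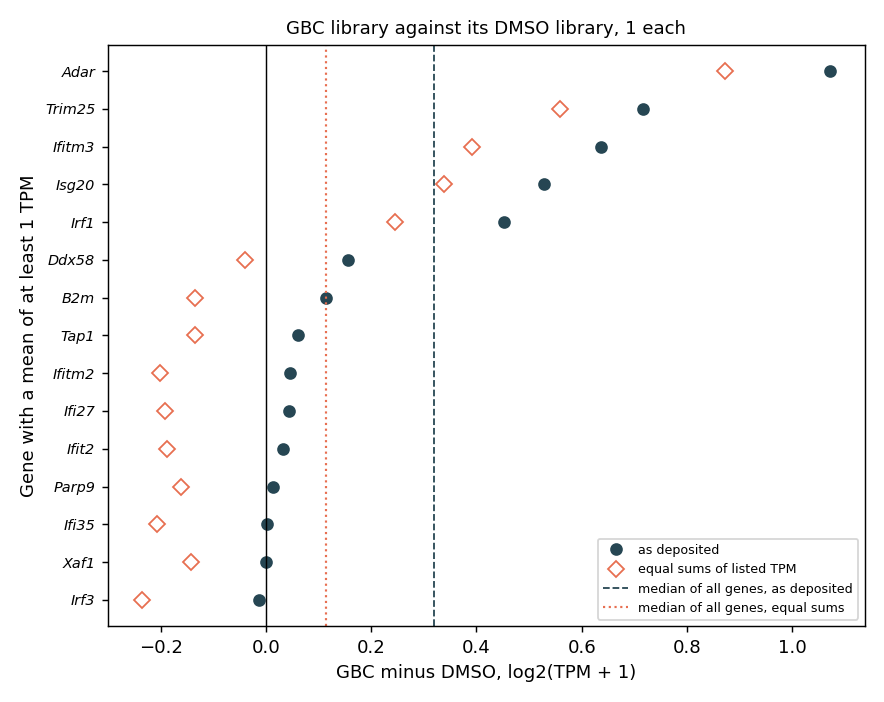
Difference of GBC minus DMSO in log2(TPM + 1) for the 15 interferon-stimulated genes that averaged 1 TPM or more, 1 library each, as deposited (filled) and with equal sums of listed TPM (open), with the median of all genes under each as a vertical line. Adar, at 1.07 as deposited, is farthest right, and 10 members lie left of the dashed median at 0.320.

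In the rest of the pathway 55 genes reached a mean of 1 TPM in the pair, with a median of 0.338, beside 0.320 over all genes. At least 1 higher in GBC were 4, beside 4.35% of all genes, and at least 1 lower 0, beside 0.4%. The 4 became 2 with equal sums and 1, Myd88, after median-of-ratios scaling. Of all genes 2.57% and 1.71% were then past 1 either way. Myd88, the adaptor of Toll-like receptors, was at 7.36 TPM in GBC, against 1.47 TPM in DMSO, a difference of 1.76, which was 1.57 with equal sums. Pml, the organiser of nuclear bodies, was at 7.37 TPM in GBC, against 2.61 TPM in DMSO, a difference of 1.21 and 1.01 with equal sums. Traf3 was at 5.43 TPM in GBC, against 2.08 TPM in DMSO, and the repressor gene Irf2 at 2.23 TPM in GBC, against 0.55 TPM in DMSO, each 1.06 higher as deposited and 0.87 and 0.93 higher with equal sums. Irf2 averaged over 1 TPM only through its GBC value. Among receptors and kinases Ifngr2 differed by 0.50 and Jak1 by 0.47, and in the class I list the largest differences were 0.71 for Tap2, 0.55 for Tapbp and 0.35 for H2-M3. The DNA sensor gene Aim2 differed by 0.82, the phosphatase gene Ptpn11 by 0.76, the STAT inhibitor gene Pias1 by 0.47, the kinase gene Eif2ak2 by 0.66 and Znfx1 by 0.64. None of the interferon genes reached 1 TPM in the pair. Mesenchymal markers also differed between these libraries, with Col1a1 at 46.6 TPM in GBC, against 10.9 TPM in DMSO, and the list of 6 summing to 118 TPM in GBC, against 60.5 TPM in DMSO. Of the 6, Pdgfra, Col1a1 and Col3a1 were higher in GBC and Thy1, Dcn and Lum lower. Their part in these differences was not tested.

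Some members share sequence with other genes, which limits how reads can be assigned. Words were matched on either strand, so a shared word does not make the other gene a copy. In GENCODE M21 transcripts, 57.6% of the 50-base words of Oas1a occur in Oas1g, 51.2% of those of Ifit3 in Ifit3b, and 48.5% of those of Ifitm2 in other genes, chiefly Gm45717 at 36.1%. The sharing genes were low: Gm45717 was at 0 to 0.42 TPM in Re and listed at 0 in DMSO. Ifit3b was at 0 to 0.06 TPM in Re and listed at 0 in DMSO. Oas1g was listed at 0 in the Re table. In the GBC table it was at 0.02 TPM in GBC and 0.09 TPM in DMSO, beside 0.08 and 0.09 TPM for Oas1a. These values rest on the same assignment of reads. Adar shares 14.4% with Chrnb2, which was at 0.22 TPM in GBC and 0.09 TPM in DMSO. B2m, Ifit2, Bst2 and Ifi27 share none.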

How the data were processed

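RNA was sequenced from 8 libraries, 3 Re and 3 DMSO in one table and 1 GBC and 1 DMSO in another. Total RNA went into TruSeq RNA libraries, per the labels' protocols. STAR, RSEM and the builds GRCh38 and GRCm39 stand in the submitters' processing notes; roles and settings were not given in the sources used here. Both deposited tables hold log2(TPM + 1) values, as the authors named them. These were turned back to TPM and rounded to 0.01, which changed none by more than 0.0002. Depth is unknown, so no count model, counting interval or floor was used.

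The Re libraries were set against DMSO with limma 3.58.1 and R 4.3.3 (lmFit, eBayes with trend, two-sided, Benjamini-Hochberg adjustment over all genes tested, threshold 0.05) on log2(TPM + 1), a pseudocount of 1, over genes that averaged 1 TPM or more. Differences on this scale understate the change of low genes. The step was checked on simulated data. GBC and DMSO were compared without a test, counting differences of at least 1. Other scales were tried beside the deposited one, median-of-ratios and equal listed sums, with the other alternatives below. Tables and figures used Python 3.11.15, pandas 2.3.3, numpy 2.4.6 and matplotlib 3.10.9.

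The members, lists and tests were chosen with earlier results of these data known. All members are accounted for; from each pathway list up to 3 genes with the largest Re or GBC difference were named, and Uba7 stands with Isg15. A gene that this rule names is not reported here. Which members without a test are given in full, which promoter stretches are shown, and the members singled out by library were chosen after their values were seen. Promoters came from RefSeq (GRCm38.p6), and the positions of the promoter stretches are on that build, which differs from GRCm39.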

Additional observations from a re-analysis of the deposited data

How the results depend on the processing

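The count of members called in Re was 0 under all 17 alternatives in limma, as was that of pathway genes. At an unadjusted p under 0.05 in limma there were 0 to 4 members and 1 to 13 pathway genes. Over all genes this count ran from 424 of 11962 without Re replicate 2 to 1657 of 11966 without DMSO replicate 1. The 4 and the 13 also came without DMSO replicate 1. The median difference of the members in Re was 0.109 as deposited, -0.0004 after median-of-ratios scaling, 0.052 with equal sums, and 0.091 to 0.173 with 1 library left out, beside 0.105, 0.0002 and 0.043 over all genes under the first 3. Without DMSO replicate 2 the groups did not overlap in 8 members, against 5 with all libraries. Over all tested genes the share above went from 13.7% to 16.9% and the share below from 1.27% to 4.8%. This alternative and those of the pathway lists were chosen after seeing the data.

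In GBC the members past a difference of 1 either way numbered 1 as deposited, beside 4.75% of all genes. They numbered 2 at a pseudocount of 0.1 (Adar and Trim25), beside 10.1%. They numbered 0 with a filter of 5 TPM, median-of-ratios scaling or equal sums, beside 5.21%, 1.71% and 2.57%. The median of the members was -0.307 after median-of-ratios scaling, -0.135 with equal sums and -0.106 without mitochondrially encoded genes, beside -0.068, 0.113 and 0.186 over all genes.

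No single member was called under scaling, a replicate block or any left-out library, the smallest adjusted p being 0.355 in limma. After scaling the sign turned for Irf1 (-0.00913), Ifit2 (-0.0873), Bst2 (-0.000382), Ifitm2 (-0.0237), Ifitm3 (-0.104) and B2m (-0.00451). With 1 library left out the differences ran from -0.0117 to 0.21 for Irf1, -0.39 to 0.12 for Irf9, -0.0561 to 0.0284 for Trim25, -0.15 to 0.0883 for Ifit2, -0.0745 to 0.17 for Bst2, -0.21 to 0.0492 for Ifitm1, -0.10 to 0.10 for Ifitm3 and -0.27 to 0.34 for Xaf1. The causes were not tested.

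Replicate numbers are shared by the titles of Re and DMSO only. In the sample descriptions the Re libraries are numbered on from the DMSO libraries. The labels do not state pairs, and none were taken. Same-numbered libraries deviated together only weakly, with correlations of 0.163, 0.077 and 0.017. Libraries of unlike number gave -0.172 to 0.094, so these values do not settle whether cultures were paired. With the replicate block 0 members were called and the members' median was 0.109. The limits are the 3 libraries a group in Re, 1 in GBC, unknown depth and the many members near 0, for which no difference can be read.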
